A study of Mus musculus with 6 samples.

Results

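The 10 genes described here are receptors, ligands and target genes of the Notch pathway: Notch1, Notch2, Notch3, Notch4, Jag1, Jag2, Dll4, Hes1, Hey1 and Heyl. They were taken by symbol from a table of 24063 genes with raw read counts, and all 10 were found in it. The libraries come from liver tumors of male C57BL/6 mice, 3 from WT (NR2E3+/+) and 3 from Nr2e3-/- animals, a knockout of the orphan nuclear receptor NR2E3 whose design is not given in the sources used here. All of the mice, WT included, had received 25 mg per kg of the liver carcinogen diethylnitrosamine by intraperitoneal injection at 15 days of age, and the tumors are from the 24-week time point, so untreated liver is not part of the comparison. The labels list the libraries as separate samples without naming a mouse, litter or batch, so p-values measure the spread between these samples, and it is not stated whether the genotypes were littermates or how many nodules went into a library.

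Notch receptors are single-pass membrane proteins that are activated by ligands on a neighboring cell. Ligand binding exposes the receptor to the protease ADAM10 and then to γ-secretase, and the freed intracellular part enters the nucleus, binds RBPJ and switches on genes such as Hes1, Hey1 and Heyl, which encode transcriptional repressors. In liver the pathway is known for its part in forming bile ducts, for which Jag1 and Notch2 are needed, and for its role in blood vessels, where Dll4, Notch1 and Notch4 are typical of endothelial cells and Notch3 of the mural cells around them. Several of these genes are also counted in the Wnt/β-catenin hallmark gene set.

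Total counts were between 15376261 and 28690279 per library. Nr2e3 itself had 0 counts in each of the 6 libraries, which allows up to 0.101 to 0.199 normalized CPM depending on the library (3 counts, counting error only), so the genotype could not be checked from its own transcript. CPM here are counts relative to library size after TMM scaling. Over all genes tested, Nr2e3-/- replicate 1 differed from the WT libraries by 0.506 to 0.600 (root mean square of log2 CPM) and from the other Nr2e3-/- libraries by 0.630 to 0.800, so this library lay closer to WT than to its own group. Markers of hepatocytes, the main cell of liver, were abundant in all libraries, with Alb at 100365 to 130181 CPM in WT and 83977 to 103126 CPM in Nr2e3-/- tumors. The 10 hepatocyte markers summed to 156706 to 190153 CPM in WT and 152817 to 173494 CPM in Nr2e3-/- tumors. Afp, a fetal liver protein that many liver tumors make, was found at 19.9 to 135 CPM in WT and 21.5 to 30.1 CPM in Nr2e3-/- tumors, and 8 tumor markers including it summed to 184 to 599 CPM and 138 to 374 CPM.

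The stretch before the annotated start is shown for Notch2, the only receptor whose libraries did not overlap between the genotypes (adjusted p = 0.213 from edgeR). It is also shown for Notch1, the next most abundant receptor, whose libraries overlapped between them. Both lie in GRCm38.p6 and were taken from RefSeq, Notch2 at chr3:98013288-98013526 (plus strand) and Notch1 at chr2:26503825-26504072 (minus strand). Annotated exons were trimmed off, and the Notch1 stretch falls in an intron of a longer annotated transcript. Capitals mark GGGCGG, the core of the site bound by Sp1, or CCGCCC, the same site on the other strand.
Notch2: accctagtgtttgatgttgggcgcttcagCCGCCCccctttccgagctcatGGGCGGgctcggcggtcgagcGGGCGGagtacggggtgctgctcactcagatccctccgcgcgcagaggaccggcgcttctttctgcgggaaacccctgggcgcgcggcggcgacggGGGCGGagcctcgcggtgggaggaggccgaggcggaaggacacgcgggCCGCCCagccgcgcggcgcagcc
Notch1: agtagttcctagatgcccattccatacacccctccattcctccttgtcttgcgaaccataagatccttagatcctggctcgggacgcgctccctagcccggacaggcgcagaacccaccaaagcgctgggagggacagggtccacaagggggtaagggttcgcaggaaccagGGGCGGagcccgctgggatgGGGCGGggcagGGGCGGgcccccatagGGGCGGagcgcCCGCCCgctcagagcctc

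Each stretch holds 5 such sites. RefSeq promoters (250 bases before to 50 after a start) were matched for 7 of the 10 members, and Hes1, Hey1 and Heyl were not matched. On both strands, GGGCGG was found in 5 of these 7 (Notch1, Notch2, Notch3, Dll4 and Jag2), against 35.7% of all 32851 promoters. These counts used windows with annotated exons left in. For Dll4 and Jag2, 0 bases before the start remained once annotated exons were trimmed off. TGGGAA, the core of the RBPJ site, was found in 0 of the 7 and in 25.6% of all promoters, and AAGTCA, a hexamer that NR2E3 binds, in 0 of the 7 and in 15.1%. The 3 motifs do not contain each other, and a match describes letters in these windows only.

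Levels of different genes were compared per length, as normalized CPM per kilobase of merged exons. Notch2 was the most abundant receptor in every library, at 5.59 to 7.64, followed by Notch1 at 1.51 to 1.93, Notch4 at 0.604 to 0.829 and Notch3 at 0.140 to 0.468. Of the 4 receptors' summed level, Notch2 made up 67.5% (SD 2.54) in the WT and 72.0% (SD 4.66) in the Nr2e3-/- tumors, with n = 3 in each group and overlapping libraries. Dll4 at 1.39 to 2.33 and Jag1 at 0.770 to 1.52 were the main ligands, and Jag2 at 0.0078 to 0.083 was the lowest of all members. Hes1 at 4.88 to 8.80 made up 89.4% to 95.8% of the level of the 3 targets, with Heyl at 0.201 to 0.557 and Hey1 at 0.0993 to 0.297.

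In the order of mean levels over the 6 libraries, Hes1 came first and Notch2 second. Hes1 was above Notch2 in only 3 of the 6 libraries, which were the 3 WT libraries, and below it in the 3 Nr2e3-/- libraries. This split by genotype depends on the gene length used. Per kilobase of the longest transcript Hes1 was above Notch2 in 4 of the 6 libraries. Notch3 and Heyl could not be ordered either, since Notch3 was above Heyl in 3 of 6 libraries. Dll4 was above Notch1 in 5 of 6 libraries, but per kilobase of the longest transcript it was below Notch1 in all 6, so these 2 genes could not be ordered. Heyl was above Hey1 in 5 of 6 libraries by merged exons and in 4 of 6 by the longest transcript. The remaining neighbors (Notch2 and Dll4, Notch1 and Jag1, Jag1 and Notch4, Notch4 and Notch3, Hey1 and Jag2) kept their order in all 6 libraries with either length.

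**Figure D1:**
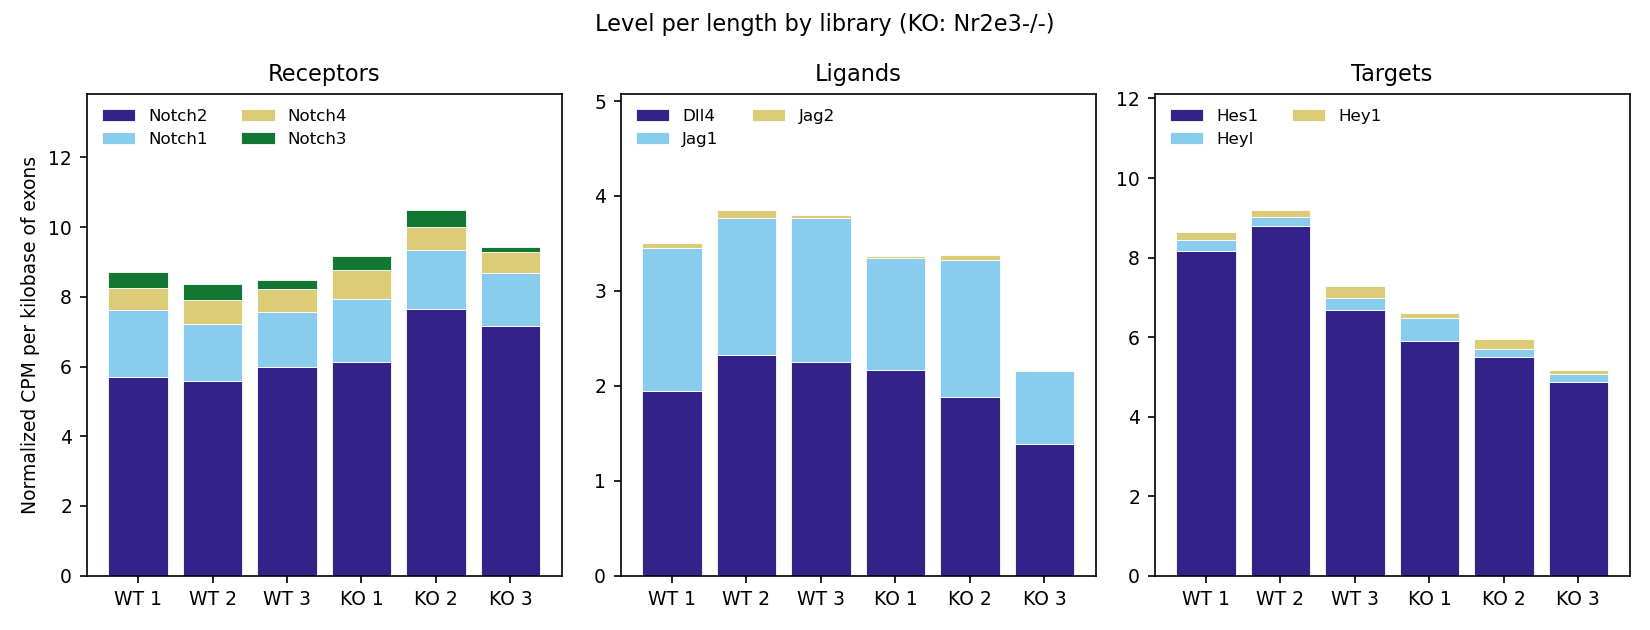
Stacked bars give the level of each gene per length (normalized CPM per kilobase of merged exons) in each of the 6 libraries, by receptors, ligands and targets, with KO for Nr2e3-/-. Notch2 is the largest part of the receptor bars and Hes1 of the target bars in every library, and the target bars of the Nr2e3-/- libraries are all shorter than those of WT.

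Summed per length, the receptors reached 8.37 to 8.70 in WT and 9.17 to 10.5 in Nr2e3-/- tumors, the ligands 3.50 to 3.85 in WT and 2.17 to 3.38 in Nr2e3-/- tumors, and the targets 7.27 to 9.19 in WT and 5.18 to 6.61 in Nr2e3-/- tumors. In each family the groups did not overlap, with receptors on the higher and both ligands and targets on the lower side in Nr2e3-/- tumors. A single gene has groups that do not overlap in 26.8% of all genes tested. These sums are set by Notch2, by Jag1 with Dll4, and by Hes1, and they are given as a description. These are bulk tumor samples, in which fewer cells of a type and less RNA per cell cannot be told apart.

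To ask which members differ between the genotypes, all 13572 genes that passed a filter on low counts were tested by the quasi-likelihood method of edgeR, two-sided, and p-values were adjusted over all of them by Benjamini-Hochberg. Of the 10 members, 9 passed the filter, and Jag2 did not. With an adjusted p-value under 0.05, 0 of the 9 were called, against 0.0958% of all genes tested. DESeq2 also called 0 members, against 5.81% of the 18815 genes it fitted, some of which, such as Jag2, got no adjusted p-value. Limma-voom with sample quality weights called 1 (Hes1), against 17.4%. Before adjustment, 2 of the 9 (22.2%) had p under 0.05 in edgeR, Notch2 higher and Hes1 lower in Nr2e3-/- tumors, against 21.5% of all genes tested (11.8% higher and 9.72% lower). The groups did not overlap for the same 2 members, against 26.8% of all genes tested. Both shares lie close to or below those of all genes, and so are no result about the Notch genes. The median log2 fold change of the 9 members was -0.19, with 3 above and 6 below 0, and that of all genes tested was 0.01. A single gene compared by an exact permutation test over 3 against 3 libraries cannot reach a p-value below 0.1. Without Nr2e3-/- replicate 1, 2 members (Notch2 and Hes1) had an adjusted p-value under 0.05, beside 21.8% of all genes tested in that fit. Nr2e3-/- replicate 3 held the lowest value of 9 of the 10 members, all but Notch2, while it held the lowest value of 19.9% of all genes tested. The summed levels of 5 of 7 marker lists (hepatocyte, liver tumor, endothelial, lymphocyte, and stellate cell, fibroblast and smooth muscle) were also lowest in that library, and their part in this was not tested. The hepatocyte sum was mostly Alb (83977 CPM of 152817 CPM in that library), and the other hepatocyte markers were not all lowest there.

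**Figure D2:**
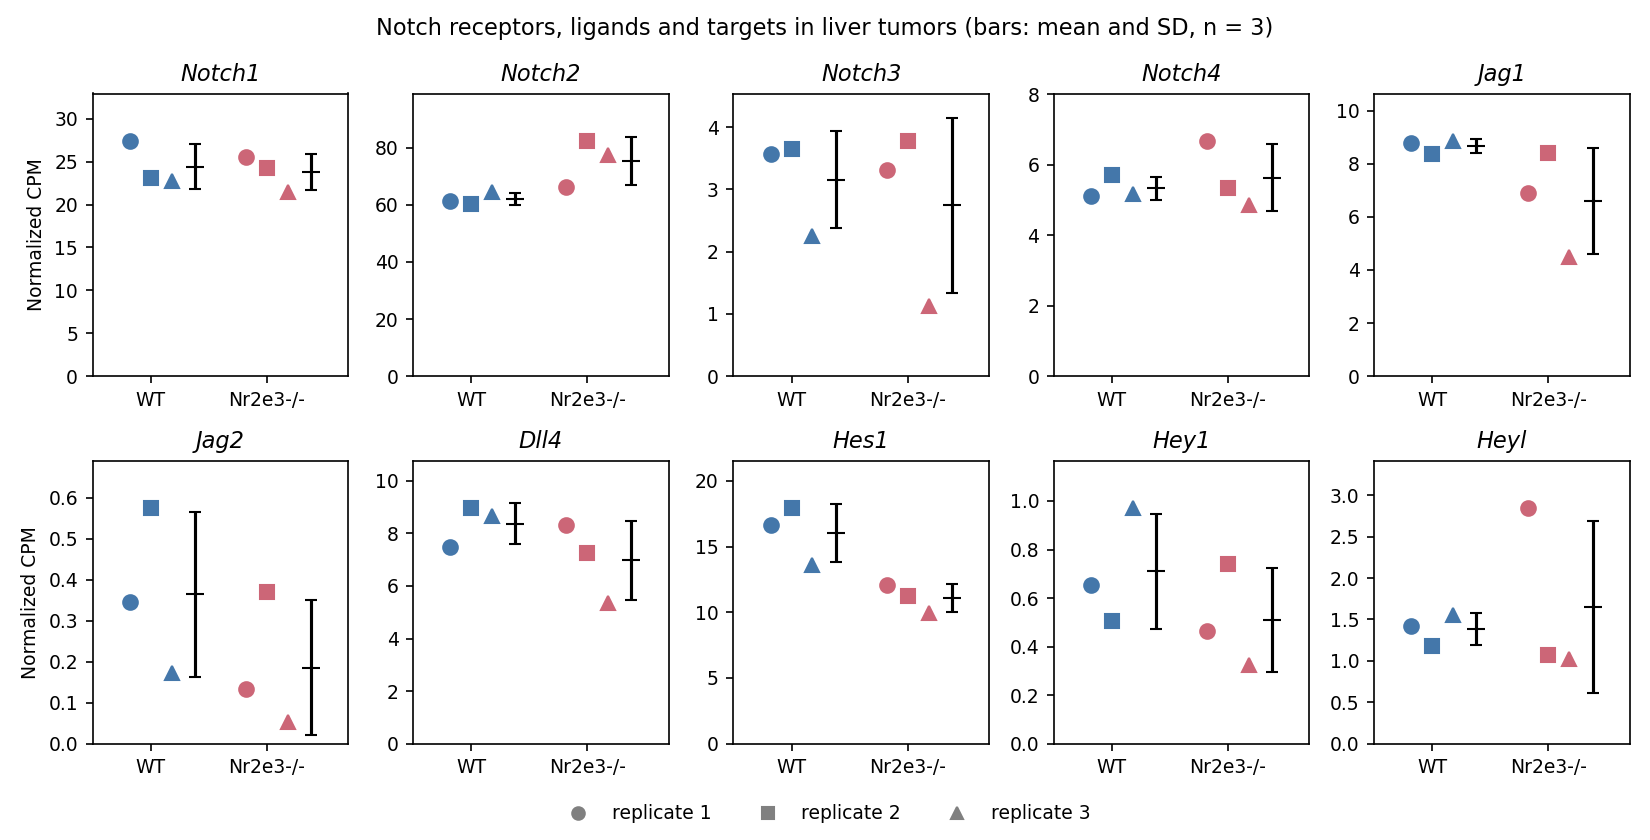
Normalized CPM of each member in the 3 WT (blue) and 3 Nr2e3-/- (red) libraries, with a symbol for each replicate number and the mean and SD (n = 3) beside each group. Only Notch2 and Hes1 have groups that do not overlap, and the lowest value of every member except Notch2 belongs to Nr2e3-/- replicate 3 (triangles).

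Notch2, the receptor needed for bile duct formation, lies on chromosome 3 from 98013527 to 98150361 (plus strand), and the transcripts Gm42819 and Gm42820 overlap it. It had 61.4, 60.2 and 64.4 CPM in WT and 66.2, 82.4 and 77.4 CPM in Nr2e3-/- replicates 1, 2 and 3. All Nr2e3-/- libraries were above all WT libraries, replicate 1 by little. This gave a log2 fold change of 0.28 (standard error 0.11, 95% interval 0.02 to 0.54, unadjusted p = 0.0403, adjusted p = 0.213 from edgeR). By exact permutation of the libraries p was 0.1, two-sided. Without Nr2e3-/- replicate 1 the log2 fold change was 0.37 and the adjusted p-value 0.0317 from edgeR, and over all 13 alternatives the adjusted p-value ran from 0.0317 to 0.467 with the change above 0 throughout.

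Notch1, a receptor found on endothelial and many other cells, lies on chromosome 2 from 26457903 to 26516663 (minus strand), where the transcripts 0610009E02Rik and Gm13568 run on the other strand. Its level was 27.4, 23.1 and 22.7 CPM in WT and 25.5, 24.3 and 21.5 CPM in Nr2e3-/- tumors. The groups overlapped almost fully. Its log2 fold change was -0.04 (standard error 0.13), and the 95% interval of -0.34 to 0.26 is the narrowest among the receptors after that of Notch2.

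Notch4, which is typical of endothelial cells, lies on chromosome 17 from 34564268 to 34588503 (plus strand), overlapping Gm20462. It had 5.11, 5.72 and 5.17 CPM in WT and 6.68, 5.34 and 4.86 CPM in Nr2e3-/- tumors, so the Nr2e3-/- libraries held both the highest and the lowest value. Its log2 fold change was 0.08 (95% interval -0.34 to 0.50).

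Notch3, the receptor of mural cells, lies on chromosome 17 from 32120820 to 32166852 (minus strand), with Gm17276 annotated as antisense to it. It had 3.57, 3.65 and 2.25 CPM in WT and 3.31, 3.79 and 1.14 CPM in Nr2e3-/- tumors. The low value was that of Nr2e3-/- replicate 3, from 21 counts, and the other libraries of that group lay within the WT range or just above it. The log2 fold change of -0.19 had an interval from -1.21 to 0.82, and without replicate 3 of Nr2e3-/- it was 0.18. In that same library the summed level of 15 markers of stellate cells, fibroblasts and smooth muscle was 281 CPM, the lowest of all 6 (432 to 519 CPM in WT and 281 to 480 CPM in Nr2e3-/-). The part of these cells in the Notch3 level was not tested.

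Among the ligands, Jag1, whose loss causes bile duct paucity, lies on chromosome 2 from 137081456 to 137116644 (minus strand). It was measured at 8.79, 8.39 and 8.87 CPM in WT and at 6.88, 8.42 and 4.49 CPM in Nr2e3-/- tumors. WT libraries lay close together, and the groups overlapped only because Nr2e3-/- replicate 2 exceeded WT replicate 2 by a small margin. Its log2 fold change was -0.39 (standard error 0.23, 95% interval -0.94 to 0.15, adjusted p = 0.357 from edgeR). It was below 0 in all 13 alternatives, from -0.65 to -0.17, and was smallest in size without Nr2e3-/- replicate 3.

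Dll4, the ligand of sprouting and arterial endothelium, lies on chromosome 2 from 119325784 to 119335962 (plus strand), with Gm14207 on the other strand. It had 7.48, 8.96 and 8.67 CPM in WT and 8.34, 7.24 and 5.35 CPM in Nr2e3-/- tumors. Nr2e3-/- replicates 2 and 3 were below all WT libraries and replicate 1 was within their range. The log2 fold change was -0.27 (standard error 0.20, 95% interval -0.73 to 0.19), and it stayed below 0 in all 13 alternatives.

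Jag2, a second Jagged ligand at position 112907819 to 112929776 of chromosome 12 (minus strand), had 9, 17 and 5 counts in WT and 2, 10 and 1 counts in Nr2e3-/- tumors. With so few reads it did not pass the filter, and the size of difference that could be detected at this depth was not tested. The groups overlapped, and exact permutation gave p = 0.3, two-sided.

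**Figure D3:**
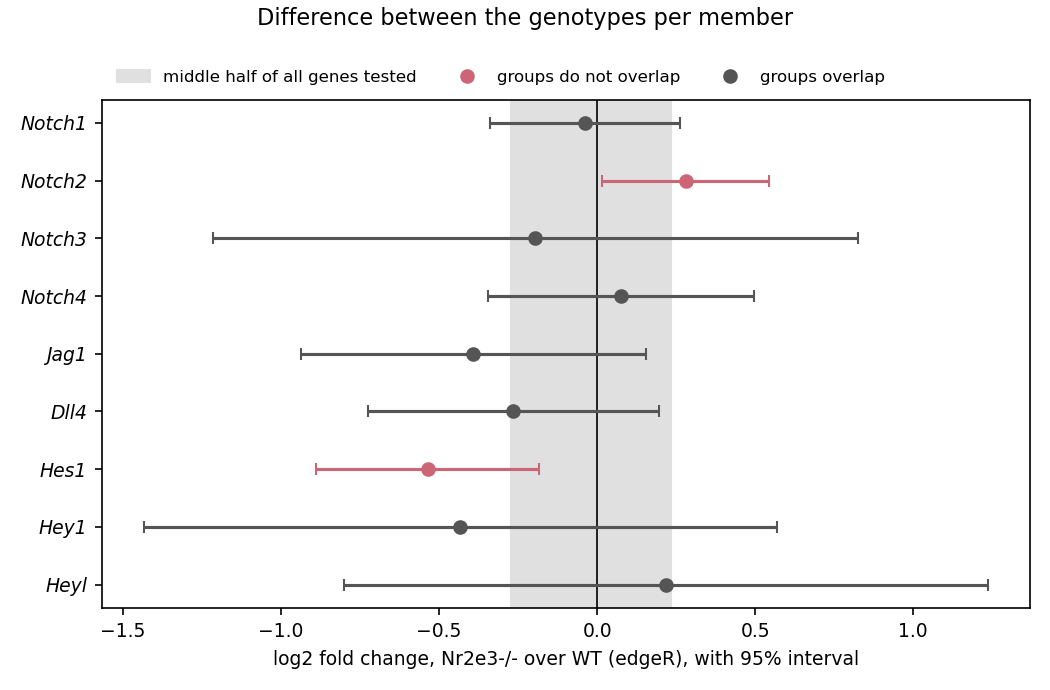
Points give the log2 fold change of Nr2e3-/- over WT from edgeR for the 9 members tested, bars the 95% interval, and the gray band runs between the quartiles of all genes tested (-0.27 and 0.23). Red marks the genes whose groups do not overlap. The intervals of Notch2 and Hes1 leave out 0 before adjustment, and those of Notch3, Hey1 and Heyl are the widest.

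Among the targets, Hes1 had the smallest p-value of all members. It encodes a basic helix-loop-helix repressor, also restrains its own gene, and lies on chromosome 16 from 30064384 to 30067796 (plus strand) with no overlapping annotated gene. It was measured at 16.6, 17.9 and 13.6 CPM in WT and at 12.0, 11.2 and 9.95 CPM in Nr2e3-/- tumors. All 3 Nr2e3-/- libraries were below all 3 WT libraries. The mean of the WT was 16.0 CPM (SD 2.22) and that of the knockout tumors 11.1 CPM (SD 1.06), with n = 3 in each group. Its log2 fold change was -0.54 (standard error 0.15, 95% interval -0.89 to -0.18, unadjusted p = 0.00870, adjusted p = 0.132 from edgeR) and p = 0.1 by two-sided exact permutation. It was between -0.65 and -0.45 in all 13 alternatives, with an adjusted p-value from 0.0370 to 0.386. The adjusted p-value was 0.0409 when edgeR was run without replicate 1 of Nr2e3-/-, 0.0370 by limma-voom with sample quality weights and 0.0537 by DESeq2.

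Hey1, a related repressor that acts in endothelium, lies on chromosome 3 from 8663359 to 8667256 (minus strand). It had 17, 15 and 28 counts in WT and 7, 20 and 6 counts in Nr2e3-/- tumors, or 0.653, 0.507 and 0.971 CPM against 0.463, 0.742 and 0.324 CPM. The groups overlapped, and the log2 fold change of -0.43 had an interval from -1.43 to 0.57.

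Heyl, a Notch target of mural cells, lies on chromosome 4 from 123233556 to 123249875 (plus strand). It had 1.42, 1.18 and 1.56 CPM in WT and 2.85, 1.08 and 1.03 CPM in Nr2e3-/- tumors. Nr2e3-/- replicate 1 was above, and the other Nr2e3-/- libraries below, all WT libraries. Its log2 fold change of 0.22 (95% interval -0.80 to 1.24) therefore rested on replicate 1, and without that library it was -0.39 (adjusted p = 0.340 from edgeR).

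**Figure D4:**
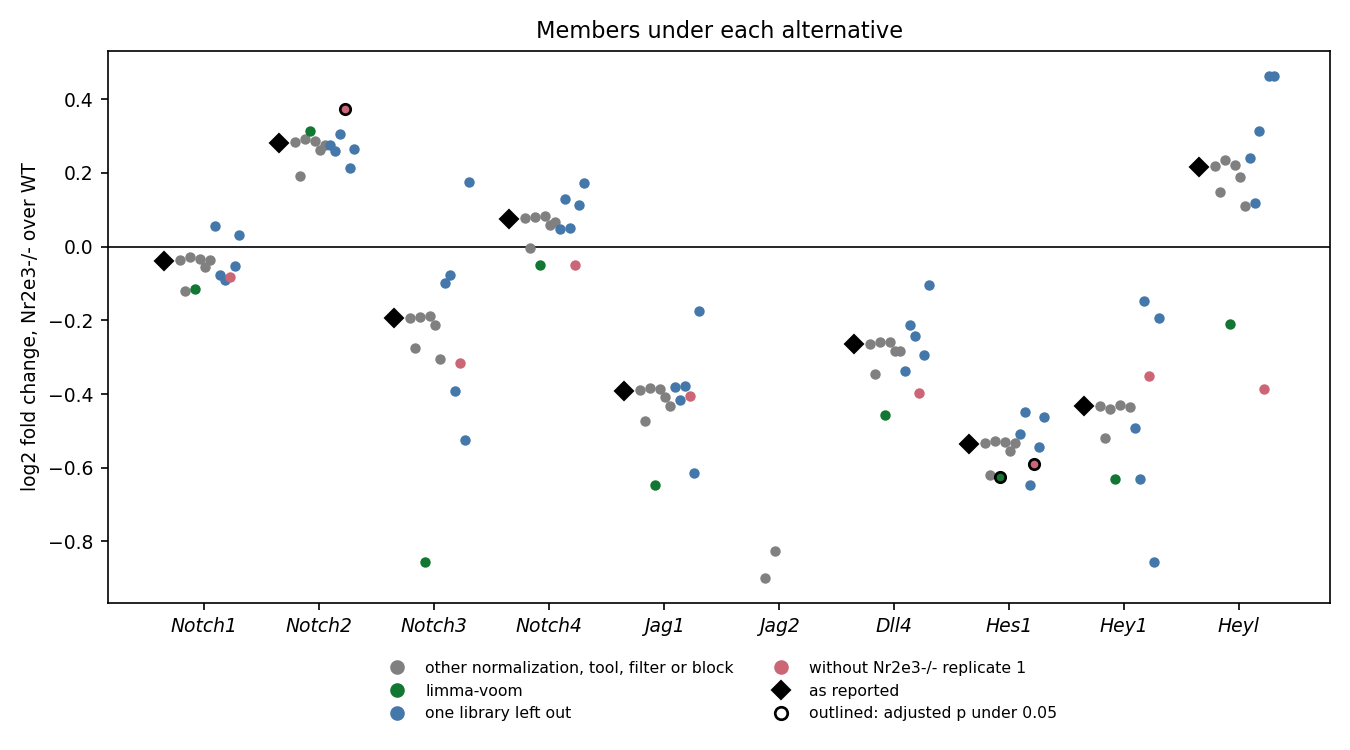
Log2 fold change of each member as reported (black diamond) and under each alternative (points), with outlined points for an adjusted p-value under 0.05. Notch2 stays above 0 and Jag1, Dll4, Hes1 and Hey1 below 0 in every alternative that tested them, while Heyl, Notch1, Notch3 and Notch4 lie on both sides.

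The other genes of the pathway were followed as a list of 57 genes, of which 49 passed the filter. With an adjusted p-value under 0.05, 0 of the 49 were called. Before adjustment 5 (10.2%) had p under 0.05, of which 2 were higher and 3 lower, against 21.5% of all genes tested, and the groups did not overlap for 7, 4 higher and 3 lower, against 26.8%. The median log2 fold change was -0.07, with 21 above and 28 below 0. Without Nr2e3-/- replicate 1, 9 of these genes had an adjusted p-value under 0.05, among them Mfng and Aak1, beside the 21.8% of all genes called in that fit.

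Of the other ligands only Dll1 was expressed well enough to test. It had 4.61, 6.26 and 4.65 CPM in WT and 3.97, 2.49 and 3.41 CPM in Nr2e3-/- tumors, with all Nr2e3-/- libraries below all WT libraries. The difference was -0.66 on the log2 scale (standard error 0.24, unadjusted p = 0.0271, adjusted p = 0.182 from edgeR). Dll3 had 0 counts in every library, and Dlk1, Dlk2, Dner and Mfap5 did not pass the filter.

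Mfng encodes a Fringe enzyme that adds a sugar to Notch receptors and so alters which ligand they prefer. It had 1.5, 2.16 and 1.66 CPM in WT and 1.26, 0.928 and 0.649 CPM in Nr2e3-/- tumors, without overlap. Its log2 fold change was -0.92 (standard error 0.32, unadjusted p = 0.0225, adjusted p = 0.173 from edgeR). The related Lfng had 0.10 and Rfng 0.01 on the log2 scale, and Pofut1 and Poglut1, which add the sugars that Fringe enzymes and folding depend on, had -0.16 and 0.29.

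In receptor processing, Psen2, a catalytic subunit of γ-secretase, had a difference of -0.22 on the log2 scale, with Nr2e3-/- replicate 1 at 115 CPM above all WT libraries (90.3 to 97.3 CPM) and the other Nr2e3-/- libraries at 59.7 and 68.2 CPM below them. Adam10, the protease that makes the first activating cut, had 48.2, 46.5 and 43.8 CPM in WT and 44.0, 106 and 63.9 CPM in Nr2e3-/- tumors. Replicate 1 lay within the WT range, and the difference of 0.63 on the log2 scale came mostly from replicate 2.

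In the nuclear complex, Rbpj, the DNA-binding partner of the receptors, had 6.68, 6.09 and 6.66 CPM in WT and 7.87, 7.20 and 6.97 CPM in Nr2e3-/- tumors. The groups did not overlap, but the log2 fold change of 0.18 had a standard error of 0.14. Of the 13 genes of this group, 0 had p under 0.05 before adjustment. Among the regulators, Dtx3, of the Deltex family of ubiquitin ligases, had a log2 fold change of -0.70 (unadjusted p = 0.0335, adjusted p = 0.197 from edgeR), and Aak1, a kinase of endocytosis, had 0.35 (unadjusted p = 0.0388, adjusted p = 0.209 from edgeR).

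Of 7 other targets, 4 were tested, and all 4 were below 0 with p above 0.05 before adjustment. Nrarp, a feedback inhibitor that Notch switches on in many tissues, had 4.38, 3.48 and 3.95 CPM in WT and 2.71, 3.64 and 2.32 CPM in Nr2e3-/- tumors, with a log2 fold change of -0.43 (95% interval -0.97 to 0.10). Hes5, Hes7 and Hey2 did not pass the filter.

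**Figure D5:**
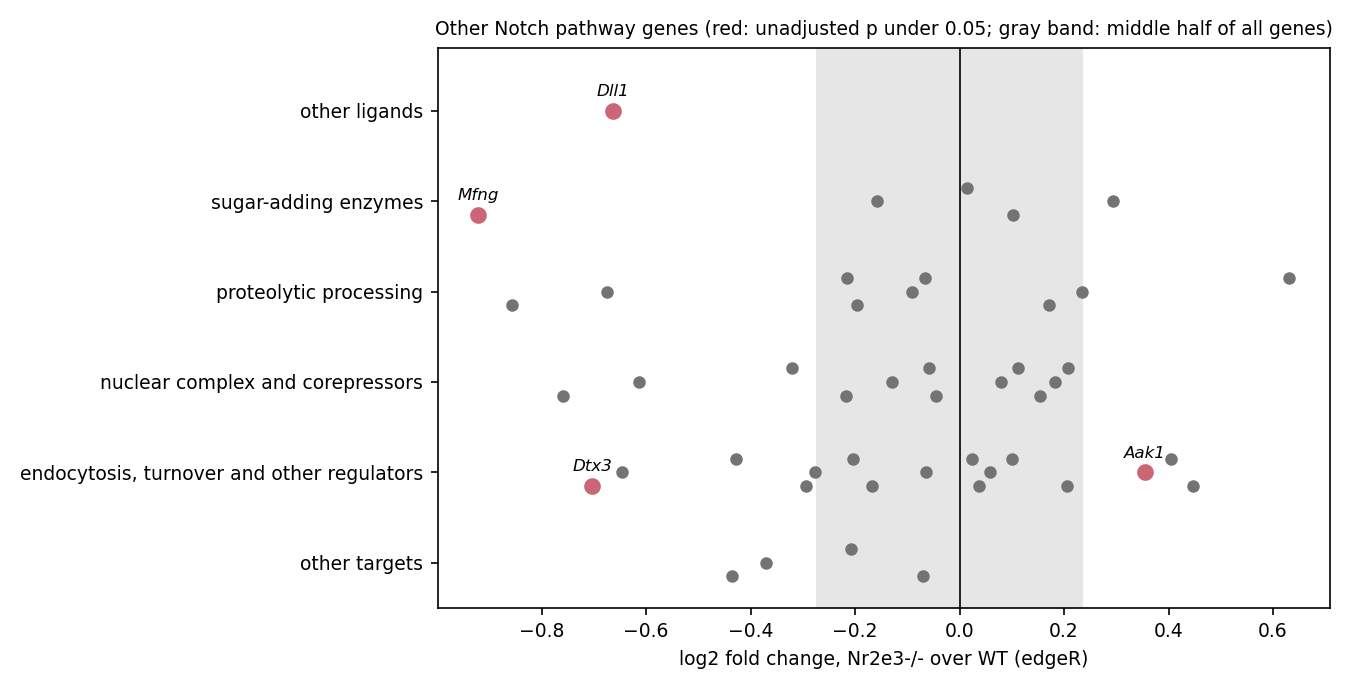
Points give the log2 fold change of Nr2e3-/- over WT for the other pathway genes tested, apart from those not reported here, by their role, in red and named where p was under 0.05 before adjustment. The named genes (Dll1, Mfng, Dtx3 and Aak1) lie on both sides of 0, and the gray band runs between the quartiles of all genes tested.

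Notch genes are among those of the Wnt/β-catenin hallmark set, which was listed from memory for this purpose. Of the members, Notch1, Notch4, Jag1, Jag2 and Hey1 are in it, together with genes of the pathway list such as Dll1, Hey2, Adam17, Maml1, Ncstn, Numb, Psen2 and Rbpj. Of 14 genes so listed 12 were tested, of which 6 were above and 6 below 0. Before adjustment only Dll1 (8.33% of the 12) had p under 0.05 in edgeR, in the lower direction, against 21.5% of all genes tested. The groups did not overlap for 3 (Adam17 and Rbpj higher, Dll1 lower), against 26.8% of all genes tested. An adjusted p-value under 0.05 was reached by 0 of the 12, against 0.0958% of all genes tested.

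Marker lists of the cell types in which these genes are usually found were read from the same fit, and their counts are to be read against all genes tested, of which 21.5% had p under 0.05 before adjustment (11.8% higher and 9.72% lower). The 16 endothelial markers summed to 694 to 731 CPM in WT and 549 to 717 CPM in Nr2e3-/- tumors. Of the 16, 7 were above and 9 below 0. Before adjustment 4 had p under 0.05, with Lyve1 higher (log2 fold change 0.82) and 3 lower (Kdr -0.61, Erg -0.77 and Emcn -0.62). Ptprb, Stab2 and Eng, the most abundant, had log2 fold changes of -0.43, -0.18 and -0.34. Of the stellate cell, fibroblast and smooth muscle markers, 4 were above and 11 below 0. Before adjustment 1 of 15 had p under 0.05, Tagln, in the higher direction (log2 fold change 0.36), and Dcn, Reln and Col3a1 had -0.39, -0.64 and -0.57. No marker of these lists was at 0 in every library, and 0 of the 16 and 0 of the 15 had an adjusted p-value under 0.05.

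Among 10 bile duct markers 8 were tested, and before adjustment 4 had p under 0.05, with 2 higher and 2 lower. On the log2 scale Spp1 had a difference of 1.68 and Krt23 of -2.40. The list summed to 69.0 to 140 CPM in WT and 78.9 to 437 CPM in Nr2e3-/- tumors, mostly from Spp1. The keratin Krt19 was at 0.555 to 1.11 CPM in WT and 0.668 to 1.79 CPM in Nr2e3-/- tumors. The 9 macrophage markers summed to 349 to 442 CPM in WT and to 305, 787 and 399 CPM in Nr2e3-/- replicates 1, 2 and 3. All 9 were above 0, with 0 of 9 at p under 0.05 before adjustment. The 9 lymphocyte markers summed to only 3.99 to 8.69 CPM in WT and 2.05 to 4.86 CPM in Nr2e3-/- tumors. All 8 tested were below 0, with 4 of 8 lower at p under 0.05 before adjustment. Of the hepatocyte markers 4 of 10 were higher by the same measure, and of the tumor markers 1 of 8 was lower. The part of any of these cell types in the levels of Hes1, Notch2 or the ligands was not tested.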

How the data were processed

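RNA of liver tumors was sequenced by the authors from TruSeq libraries as single-end reads, aligned to mm10 (GRCm38) with TopHat and counted per gene with FeatureCounts. The deposited values used here are raw counts. Whether counting used strand, and the gene annotation, are not given in the sources used here, so reads of overlapping antisense transcripts cannot be told apart. The authors' normalized table and their table of fold changes and p-values were not used. Samples were grouped by their titles.

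Counts were filtered with filterByExpr (minimum count 10, minimum total 15), scaled by TMM and tested with edgeR 4.0.16 in R 4.3.3 at an adjusted p-value of 0.05, with 95% intervals from the fit. Levels per length used merged exons of GENCODE M21, and promoters RefSeq. Symbols Tf and Adgre1 were matched under older names. The study's methods name DESeq, which was run as an alternative (DESeq2 1.42.0) beside limma-voom with sample quality weights (limma 3.58.1). Alternatives also covered normalization, filters, a replicate block and leaving out each library. The fits were tested on simulated data, where edgeR called 86.5% of 200 genes given a log2 change of 2 among 13572. It also called 13 genes that had been given none. DESeq2 called 90.5% of the 200 and 49 others, and limma-voom 85% and 10 others. Log2 changes as small as those of the members (-0.54 to 0.28) were not tested on such data.

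Named were all members, other pathway genes with an unadjusted p-value under 0.05 (some genes are not reported here) and the most abundant markers. Other pathway genes (Lfng, Rfng, Pofut1, Poglut1, Psen2, Adam10, Rbpj, Nrarp), the markers Afp, Krt19, Spp1, Krt23, Lyve1, Kdr, Erg, Emcn and Tagln, and the hallmark list were added after their values were seen. Members and lists were chosen with earlier results of these data known.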

Additional observations from a re-analysis of the deposited data

How the results depend on the processing

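Of 116 refits of single members, 105 kept direction and side of the threshold, 3 passed an adjusted p-value of 0.05 (Hes1 with limma-voom, run with sample quality weights throughout, and Hes1 and Notch2 without Nr2e3-/- replicate 1) and 8 changed sign. Notch4 changed sign with upper quartile normalization (-0.0052), limma-voom (-0.049) and without a library (range -0.051 to 0.17), Heyl with limma-voom (-0.21) and without a library (-0.39 to 0.46), Notch1 without a library (-0.090 to 0.056) and Notch3 without a library (-0.53 to 0.18). With limma-voom, 1 member was called, the members' median log2 fold change was -0.46, 5 pathway genes and 2360 of all genes were called. Without a library, 0 to 2 members, 0 to 9 pathway genes and 0 to 3022 of all genes were called, against 13 of all genes with 6 libraries, and the members' median ran from -0.35 to 0.032. The upper ends are those without Nr2e3-/- replicate 1, except the median, which was 0.032 without Nr2e3-/- replicate 3. DESeq2 called 1093 genes and 1 pathway gene, upper quartile normalization 8 genes, no filter 70 and at least 10 counts in every library 7. With the replicate number as a block 0 genes were called and the members' median was -0.28. The deviations of same-numbered libraries from their group means had correlations of -0.08, 0.22 and 0.02. With 3 libraries in each group, these cannot decide whether the numbers pair them. Upper quartile normalization moved the median of all genes to -0.08. With the longest transcript in place of merged exons, the share of Notch2 in the receptor level was 63.5% in place of 69.8%, and Dll4 lay below Notch1 in all 6 libraries. Jag2, tested without the filter, had -0.83. The cause of these shifts was not tested.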
